A study of Homo sapiens with 6 samples.

Results

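A set of 10 regulator genes of the neural crest and of its melanocyte descendants was looked up by symbol in the deposited GRO-seq tables: TFAP2A, TFAP2C, SOX9, SOX10, MITF, PAX3, SNAI2, TWIST1, FOXD3 and EDNRB. Of these 10 genes, 8 had a row, and these 8 held 18 of the 22442 deposited transcript rows and 8 of the 12438 gene symbols. SOX9 and EDNRB were not analysed here. Nascent RNA was measured with global run-on sequencing (GRO-seq), which labels the transcripts that engaged polymerases extend in isolated nuclei, in A375 cells, an established human malignant melanoma line. Cells received 25 µM A771726, 25 µM leflunomide or the solvent DMSO for 48 h, with 2 replicates in each of the 3 groups and 6 samples in all. Leflunomide is a prodrug whose isoxazole ring opens to give A771726 (teriflunomide), an inhibitor of the pyrimidine synthesis enzyme dihydroorotate dehydrogenase (DHODH). All groups are 1 cell line, and nothing in the labels says whether the replicates were separate cultures, so p-values measure the spread between these samples, which may be technical.

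The neural crest is a migratory cell population of the vertebrate embryo that gives rise to melanocytes, peripheral neurons, glia and parts of the face. AP-2 factors, PAX3, FOXD3 and the SOXE factors SOX9 and SOX10 specify it, SNAI2 and TWIST1 take part in the epithelial-mesenchymal transition that lets its cells leave the neural tube, and EDNRB is the endothelin receptor of the melanocyte branch. In that branch SOX10 and PAX3 activate MITF from its melanocyte (M) promoter, which also holds a cAMP response element, and MITF drives pigment genes. In melanoma these factors are known as markers of the lineage, and their balance differs between pigmented and dedifferentiated states.

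TFAP2A and MITF each have several deposited transcripts with different starts, so their promoter readings separate the starts. The 250 bases before 4 of these starts are shown, read 5′ to 3′ on the gene's strand from RefSeq (GRCh38.p14), because the promoter values below are given for each start. Capitals mark matches, on either strand, to 4 motifs: the AP-2 motif GCCNNNGGC, the E-box CACGTG or CATGTG that MITF binds, the SOX motif ACAAAG or ACAATG, and the cAMP response element TGACGTCA. A FOXD3 promoter follows, as the other printed gene whose window holds the cAMP response element.
TFAP2A, upstream start, chr6:10419660-10419909, minus strand: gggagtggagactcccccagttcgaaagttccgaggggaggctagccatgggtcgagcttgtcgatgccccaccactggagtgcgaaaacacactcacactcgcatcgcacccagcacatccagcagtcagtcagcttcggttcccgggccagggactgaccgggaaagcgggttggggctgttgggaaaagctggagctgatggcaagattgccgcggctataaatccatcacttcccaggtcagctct
TFAP2A, downstream start, chr6:10412392-10412641, minus strand: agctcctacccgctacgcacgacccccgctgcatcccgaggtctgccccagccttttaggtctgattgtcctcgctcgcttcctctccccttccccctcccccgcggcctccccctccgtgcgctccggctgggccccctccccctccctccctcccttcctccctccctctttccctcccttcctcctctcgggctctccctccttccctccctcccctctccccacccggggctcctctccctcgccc
MITF, A start, chr3:69739214-69739463, plus strand: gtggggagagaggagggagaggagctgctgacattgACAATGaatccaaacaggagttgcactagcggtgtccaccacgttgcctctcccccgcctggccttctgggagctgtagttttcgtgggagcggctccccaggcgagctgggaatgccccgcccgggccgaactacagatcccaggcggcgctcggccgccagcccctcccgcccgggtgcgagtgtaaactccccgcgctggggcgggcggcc
MITF, M start, chr3:69936342-69936591, plus strand: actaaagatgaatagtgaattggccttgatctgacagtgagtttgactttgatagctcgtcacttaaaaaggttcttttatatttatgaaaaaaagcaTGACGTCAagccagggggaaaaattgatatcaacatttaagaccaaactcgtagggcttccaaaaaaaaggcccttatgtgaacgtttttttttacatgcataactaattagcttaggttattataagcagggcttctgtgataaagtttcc
FOXD3, chr1:63322317-63322566, plus strand: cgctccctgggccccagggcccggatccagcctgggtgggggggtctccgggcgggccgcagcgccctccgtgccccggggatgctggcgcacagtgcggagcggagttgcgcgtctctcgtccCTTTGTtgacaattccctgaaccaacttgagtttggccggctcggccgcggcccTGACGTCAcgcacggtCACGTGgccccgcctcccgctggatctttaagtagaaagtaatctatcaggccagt

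Neither TFAP2A window held any of the 4 motifs. The M window of MITF held 1 cAMP response element, whose first base lies at −152, and this motif occurs in 1.65% of 35116 RefSeq promoter windows of the same length. The A window of MITF held 1 SOX motif at −214, a motif found in 21.2% of the windows. The FOXD3 window held a cAMP response element at −72, an E-box at −56 and a SOX motif at −126, and E-boxes occur in 15.2% of windows. The AP-2 motif, present in 19.8% of windows, was in none of the 5 printed sequences. A match of letters is a description only. The start behind the printed FOXD3 window lies 474 bases from the GENCODE start of the deposited FOXD3 transcript, and the limits of the authors' promoter window are not stated.

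The tables hold the authors' means of 2 replicates for promoter density, gene body density and traveling ratio (promoter over gene body density), as densities of unnamed unit. A single pair of library values was solved from these means and a finite ratio in 12716, 13949 and 11998 of the 22442 rows with A771726, leflunomide and DMSO. Most of the other rows had no promoter read in the group. The library with the smaller value of 1 read is called library 1. It is not matched to the labels' replicates. At promoters 1 read corresponded to a density of 0.0241 and 0.0313 in the A771726 libraries, 0.0347 and 0.0376 in the leflunomide libraries and 0.0438 and 0.0520 in the DMSO libraries. A count of 0 therefore allows a promoter density of up to 0.0722 and 0.0939 with A771726, 0.104 and 0.113 with leflunomide and 0.131 and 0.156 with DMSO (3 reads, counting error only). Total depth is unknown. Some solved promoter values are no whole number of reads, such as 0.0961 for TFAP2C in DMSO. The values 0.0183 (MITF M start, leflunomide) and 0.0211 (TFAP2A row NM_003220, A771726) lie below 1 read. The second A771726 library and the second DMSO library stood apart at promoters. Among the regulators placed by library, 4 of 6 had no promoter read in the second A771726 library and 2 of 6 in the second DMSO library, against 0 in each of the other 4 libraries. Regulators not placed by library are left out of this count. Of these, SNAI2 was at 0 in both A771726 libraries and MITF (M start) at 0 in both DMSO libraries. TFAP2A with A771726, TFAP2C in DMSO and MITF with leflunomide, also left out, each had 1 library at 0. Over 3418 genes the median promoter density was 0.0626 in the second A771726 library and 0.0520 in the second DMSO library. It was 0.0962 in the first A771726 library, 0.131 in the first DMSO library and 0.139 and 0.113 with leflunomide.

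Of 7 melanocyte markers 4 had rows, with a summed gene body density of 0.310 with A771726, 0.380 with leflunomide and 0.367 in DMSO, most of it SOX10. PMEL, a melanosome matrix protein gene, stood at 0.0172, 0.0224 and 0.0104 in the same order of groups, and MLANA, a melanosome protein gene, at 0.0046, 0.00485 and 0.0152. Of 5 mesenchymal-type melanoma markers 4 had rows and summed to 0.0943, 0.123 and 0.0982. Keratinocyte markers had rows for 2 of 4 (KRT14 and KRT10, summed 0.110, 0.129 and 0.154), fibroblast markers for 1 of 4 (COL1A1, 0.0018, 0.0026 and 0.00375) and blood markers for 0 of 4. Their part in the results below was not tested.

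SOX10 was by far the most transcribed of the 8 regulators in every group, and MITF was the lowest in DMSO and SNAI2 the lowest with each compound. In DMSO, SOX10 exceeded 98.4% of all genes in the tables in gene body density, TFAP2C 93.1% and FOXD3 88.7%, whereas the M-start row of MITF exceeded 36.3%. In the DMSO libraries the values of SOX10, TFAP2C and FOXD3 did not overlap with each other or with those of the next genes. PAX3, SNAI2, TFAP2A and TWIST1 overlapped in their DMSO library values and cannot be ordered beyond their spread. With leflunomide FOXD3 overlapped with TWIST1, and with A771726 TFAP2C overlapped with PAX3. By the means alone, SNAI2 took place 5 of 8 in DMSO, within the overlap just named, and the last place with A771726 and with leflunomide. With A771726 the SNAI2 libraries overlapped with those of FOXD3.

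**Figure D1:**
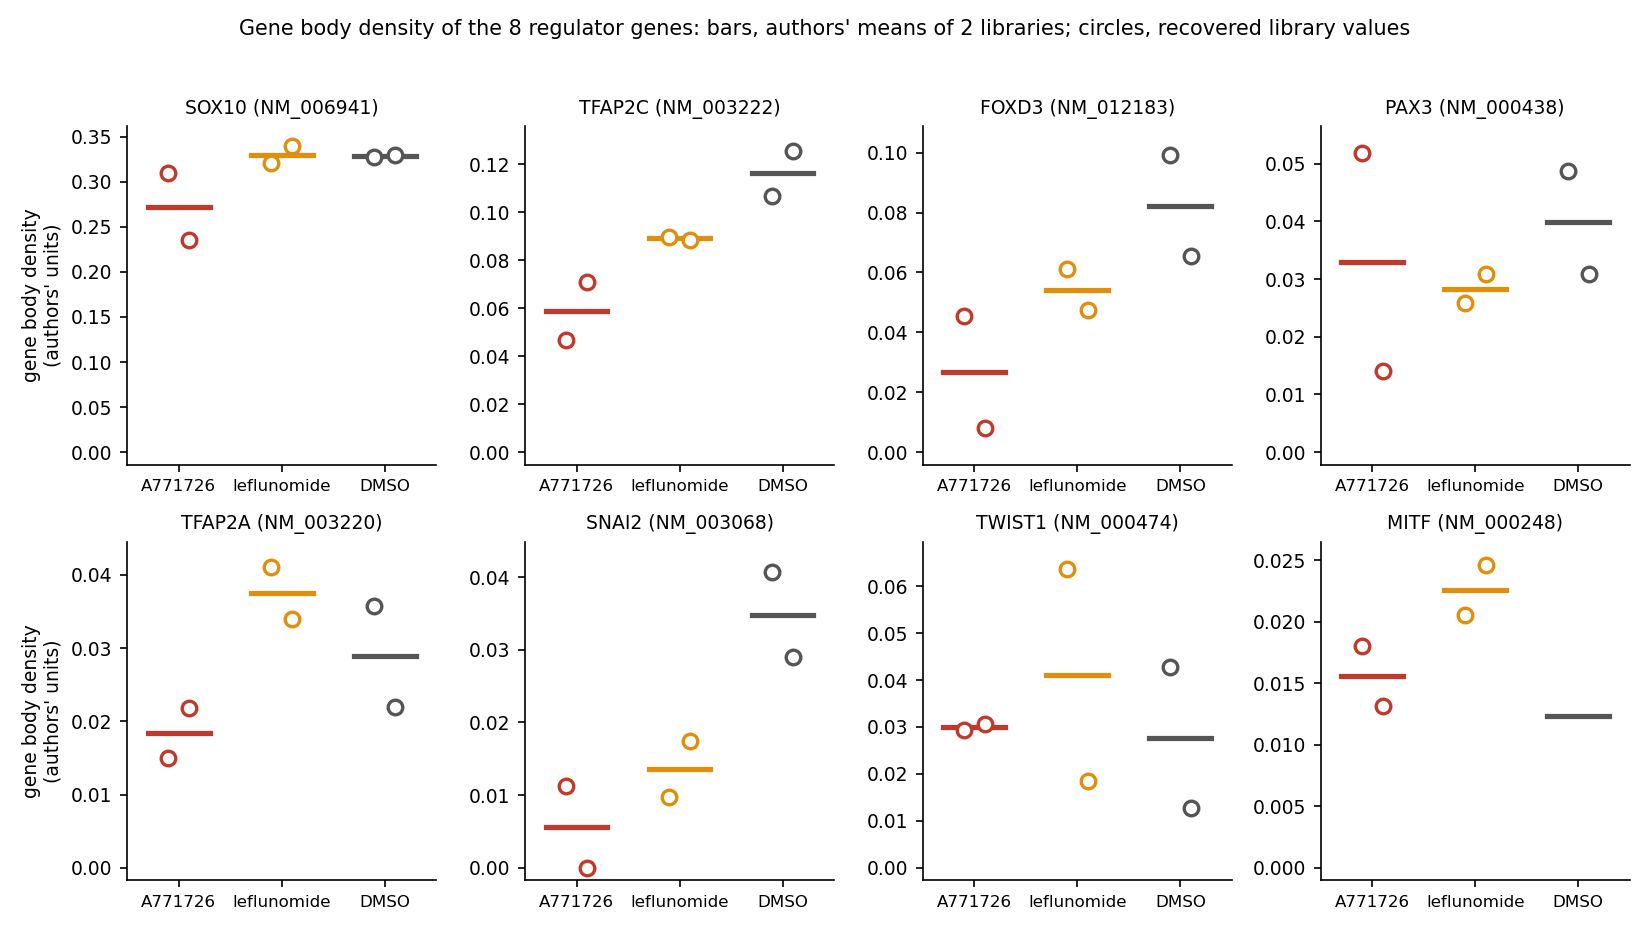
Gene body density (authors' units) of the row used for each gene, with groups on the horizontal axis in the order A771726, leflunomide and DMSO, short bars for the authors' means of 2 libraries and circles for recovered library values (their left or right place carries no meaning; MITF in DMSO could not be solved). SNAI2, FOXD3 and TFAP2C sit lowest with A771726 and highest in DMSO, while the SOX10 means lie between 0.273 and 0.330.

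SOX10, the SOXE factor that maintains the melanocyte lineage, had gene body densities of 0.310 and 0.235 in the 2 A771726 libraries, 0.321 and 0.339 in the leflunomide libraries and 0.327 and 0.330 in the DMSO libraries. Both A771726 libraries lay below both DMSO libraries, and the leflunomide libraries bracketed them. On the log2 scale the change of the means was −0.27 with A771726 and 0.01 with leflunomide against DMSO. By limma the A771726 estimate was −0.28 (95% interval −0.90 to 0.33, adjusted p = 0.501), and centring each library on its median gene turned it to 0.25. Its promoter held about 14 reads in each A771726 library, about 14 and 10 in the leflunomide libraries and 11 and 7 in the DMSO libraries, the deepest promoter count among the 8 genes. The mean promoter densities, 0.390, 0.430 and 0.423, differed by a log2 change of −0.11 with A771726 and 0.02 with leflunomide. SOX10 lies within the gene POLR2F on the opposite strand over all of its 12.238 kb (GENCODE v29, GRCh38). Since strand use in counting is not stated, reads of the 2 genes cannot be told apart. The POLR2F row itself had gene body densities of 0.0630, 0.0998 and 0.102.

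TFAP2C, the AP-2 gamma gene, had gene body densities of 0.0467 and 0.0711 with A771726, 0.0898 and 0.0885 with leflunomide and 0.107 and 0.126 with DMSO. The 3 groups did not overlap, with A771726 lowest and leflunomide in between. The change of the means was −0.96 with A771726 and −0.37 with leflunomide on the log2 scale, or 0.507 and 0.767 of the DMSO mean. The limma estimate with A771726 was −0.98 (95% interval −1.75 to −0.21, adjusted p = 0.181). At the promoter the pattern differed: TFAP2C had 2 reads in each A771726 library, 7 and about 3 reads in the leflunomide libraries, and densities of 0.0961 and 0 in the DMSO libraries. Both leflunomide libraries were above both DMSO libraries, while A771726 and DMSO overlapped. The mean traveling ratio was 0.955 with A771726, 2.04 with leflunomide and 0.449 in DMSO, and the authors' deposited table gives folds of 2.13 and 4.53 over DMSO for A771726 and leflunomide. By limma on the ratio, the leflunomide estimate was 2.47 (95% interval −0.38 to 5.31, adjusted p = 0.9999). This ratio includes a pseudocount in both densities, and the estimate was 1.40 with pseudocounts 5 times larger.

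TFAP2A, the AP-2 alpha gene, had its lowest gene body density with A771726 and its highest with leflunomide in all 3 deposited transcripts. These transcripts overlap over most of their length, so their gene bodies share reads and are not separate measurements. In the row NM_003220 the library values were 0.0150 and 0.0218 with A771726, 0.0411 and 0.0340 with leflunomide and 0.0358 and 0.0220 with DMSO. The A771726 libraries lay below all others by a margin that was narrow against DMSO, and leflunomide and DMSO overlapped. The log2 change of the means was −0.59 with A771726 and 0.35 with leflunomide against DMSO, and −0.95 for A771726 against leflunomide. By limma the A771726 estimate was −0.58 against DMSO (95% interval −1.45 to 0.29, adjusted p = 0.354) and −0.96 against leflunomide (95% interval −1.83 to −0.09, adjusted p = 0.337).

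The TFAP2A starts differed in their promoter reads. NM_001042425, the most upstream transcript, had a mean promoter density of 0 in all 3 groups, so no read was counted there in any of the 6 libraries. NM_003220, which starts 3.448 kb further downstream, had promoter means of 0.0106 with A771726, 0.0709 with leflunomide and 0.0219 in DMSO. NM_001032280, which starts 7.249 kb downstream of the first, had 0.174, 0.0738 and 0.109 in the same order. Its reads numbered 8 and 5 in the A771726 libraries, 1 and 3 in the leflunomide libraries and 5 and 0 in the DMSO libraries. Both A771726 libraries held more promoter reads than either leflunomide library at this start, while DMSO overlapped with both compounds. Its traveling ratio was 12.8 with A771726, 2.00 with leflunomide and 3.65 in DMSO. For A771726 against leflunomide the log2 change of the promoter mean was −1.66 at NM_003220 and 1.07 at NM_001032280. The NM_003220 promoter held 3 and 1 reads in the leflunomide libraries and 1 and 0 in the DMSO libraries. With A771726 its densities were 0 and 0.0211. No library exceeded 3 reads there, the number that a count of 0 allows. Limma gave −1.66 for this contrast at NM_003220 (95% interval −4.73 to 1.40, adjusted p = 0.998). Whether the direction differs between the starts was not tested. In the fit with every deposited row of different values, the ratio of NM_001032280 gave a limma estimate of 2.46 for A771726 against DMSO (95% interval −0.19 to 5.11, adjusted p = 0.926). The antisense genes TFAP2A-AS1 and TFAP2A-AS2 overlap TFAP2A over 7.107 and 3.427 kb, and their reads cannot be told apart from those of TFAP2A.

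**Figure D2:**
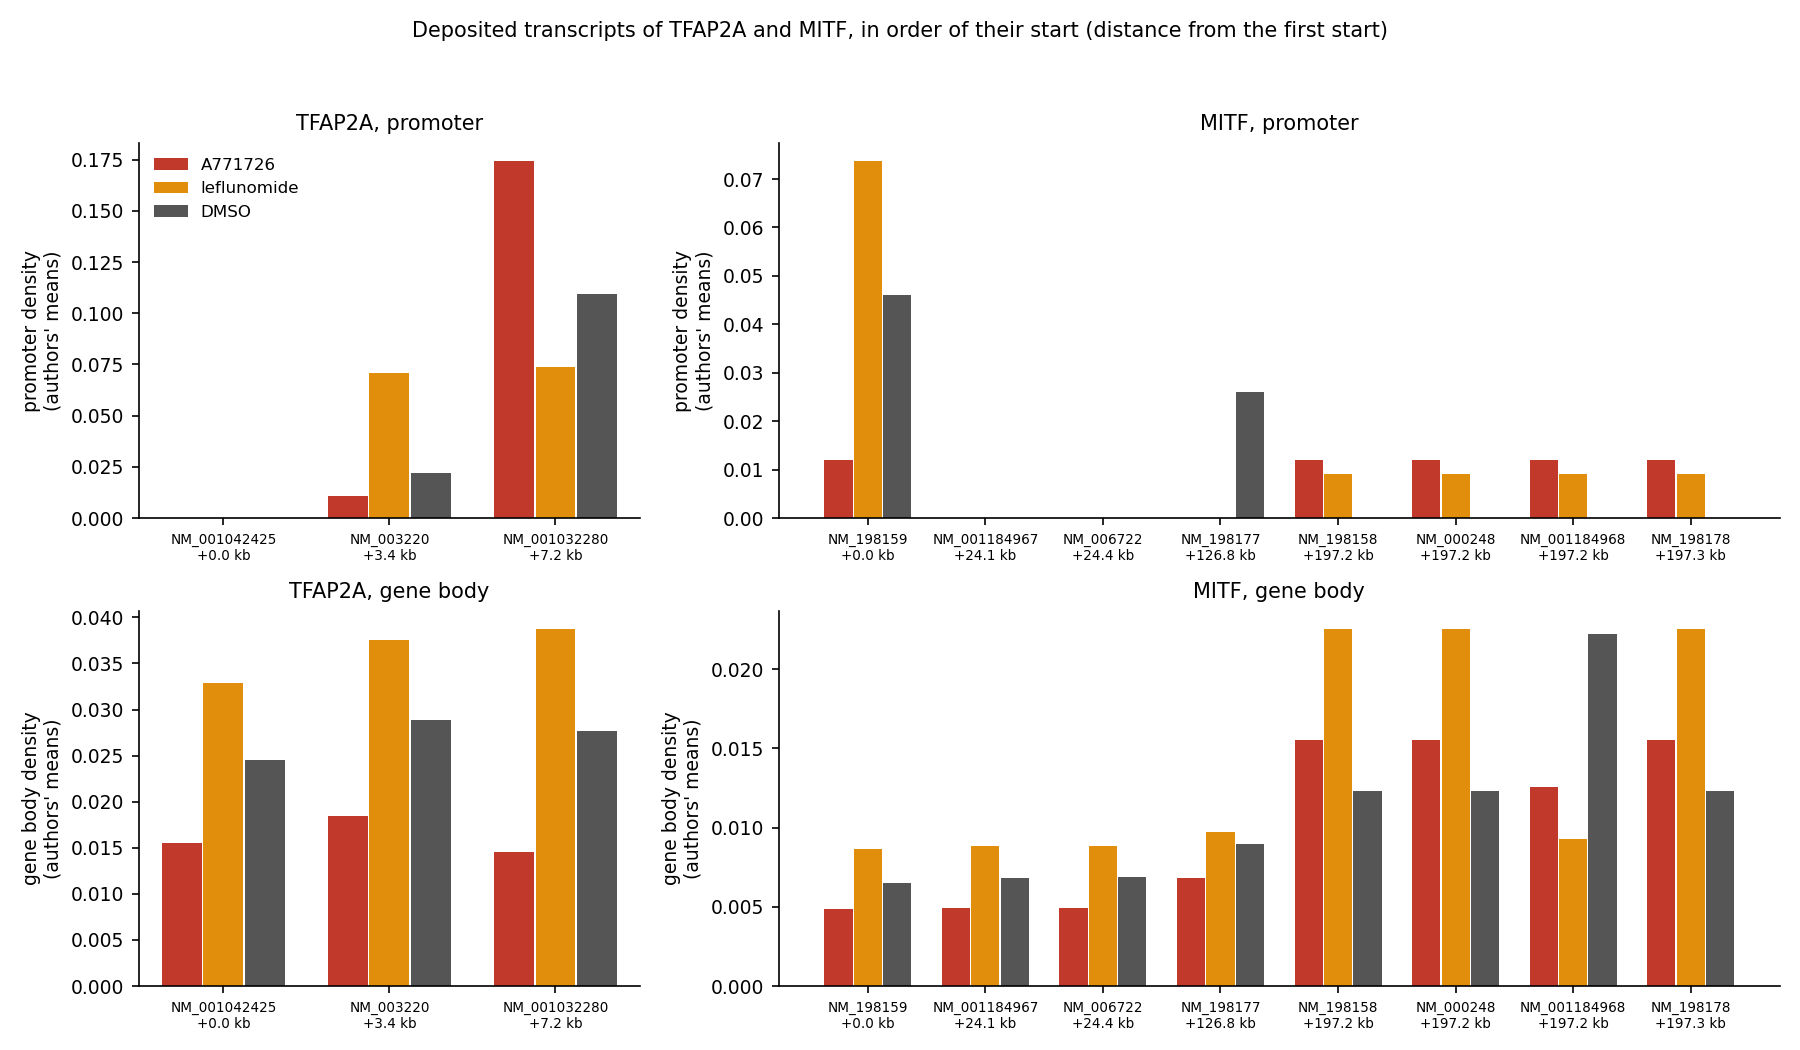
Promoter density (top) and gene body density (bottom), as the authors' means, for each deposited transcript of TFAP2A (left) and MITF (right), ordered by the distance of its start from the first start in kb (GENCODE v29, GRCh38), with bars for A771726, leflunomide and DMSO. TFAP2A has no promoter reads at its first start and the highest density at the last one, and MITF gene body density is higher in most rows of the M start than in the long rows.

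FOXD3, a forkhead repressor that holds crest cells in an early state, had gene body densities of 0.0454 and 0.0079 in the A771726 libraries, 0.0611 and 0.0473 in the leflunomide libraries and 0.0991 and 0.0654 in the DMSO libraries. The 3 groups did not overlap, and the second A771726 library was far below the first. The means were 0.324 of DMSO with A771726 (log2 change −1.55) and 0.659 of DMSO with leflunomide (−0.58). By limma the A771726 estimate was −1.92 (95% interval −3.53 to −0.31, adjusted p = 0.195, range 0.0378 to 0.601 over its alternatives). Without the second A771726 library the estimate was −0.80 (adjusted p = 0.489), and without the first it was −3.03 (adjusted p = 0.0378), so 1 library decides the size. Promoter reads numbered 7 and 0 with A771726, 3 and 4 with leflunomide and 1 and 4 with DMSO, and the groups overlapped. FOXD3 is 2.086 kb long and overlaps FOXD3-AS1 on the opposite strand over 1.401 kb.

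PAX3, a paired-box factor upstream of MITF, has 2 deposited transcripts with the same values, both annotated as short forms of 5.117 and 5.231 kb. Its gene body densities were 0.0519 and 0.0140 with A771726, 0.0258 and 0.0308 with leflunomide and 0.0488 and 0.0309 with DMSO. The A771726 libraries spanned both other groups, and the leflunomide libraries lay just below the DMSO libraries. The log2 change of the means was −0.26 with A771726 and −0.46 with leflunomide. By limma the A771726 estimate was −0.47 (95% interval −1.82 to 0.87, adjusted p = 0.603), which turned to 0.40 without the second A771726 library. Promoter reads numbered 9 and 0, 3 and 2, and 2 and 3 in the A771726, leflunomide and DMSO libraries. PAX3 overlaps CCDC140 on the opposite strand over 0.719 kb.

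SNAI2, the Slug repressor of epithelial genes, was the regulator with the largest difference from DMSO with each compound, measured on the means of gene body density. Its gene body densities were 0.0112 and 0 with A771726, 0.0097 and 0.0175 with leflunomide and 0.0407 and 0.0290 with DMSO. The 0 follows from an undefined ratio in the A771726 column, where both promoters are at 0. SNAI2 is 3.662 kb long (GENCODE v29, GRCh38). Gene body densities were not converted to reads, so no counting floor is given for this 0. Every library of both compounds lay below both DMSO libraries, and the 2 compounds overlapped. The means were 0.161 of DMSO with A771726 (log2 change −2.25) and 0.390 of DMSO with leflunomide (−1.23), or −1.73 and −1.17 relative to the median gene. By limma the A771726 estimate was −2.75 (95% interval −4.62 to −0.89, adjusted p = 0.155) and the leflunomide estimate −1.26 (95% interval −3.12 to 0.61, adjusted p = 0.999). Because 1 A771726 library is at 0, the first of these depends on the pseudocount and was −1.54 with one 5 times larger. For A771726 against leflunomide the estimate was −1.50 (95% interval −3.36 to 0.37, adjusted p = 0.354), and −0.64 with the larger pseudocount (adjusted p = 0.364). The SNAI2 promoter is listed at 0 with A771726, had 2 and about 4 reads with leflunomide, and 3 and 0 reads with DMSO. Its mean traveling ratio was 7.66 with leflunomide and 1.61 in DMSO, and it is undefined with A771726.

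TWIST1, a basic helix-loop-helix factor of the epithelial-mesenchymal transition, had gene body densities of 0.0294 and 0.0306 with A771726, 0.0636 and 0.0184 with leflunomide and 0.0428 and 0.0127 with DMSO. The leflunomide and DMSO libraries differed more within their groups than between them, and the A771726 libraries lay inside both ranges. The log2 changes of the means were 0.10 with A771726 and 0.53 with leflunomide. The limma estimates were 0.31 (95% interval −1.28 to 1.91, adjusted p = 0.773) and 0.51 (95% interval −1.08 to 2.10, adjusted p = 0.999), and both turned negative without the second DMSO library (−0.48 and −0.29). Promoter reads numbered 8 and 0 with A771726, 3 and 1 with leflunomide and 1 in each DMSO library. The other transition factor of the 8, SNAI2, thus had a log2 change of the opposite sign with both compounds, although neither gene passed the limma threshold and the difference between them was not tested.

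MITF, the basic helix-loop-helix regulator of pigment cells, has 8 deposited transcripts, which start at 4 places over 197 kb. NM_198159 starts first, NM_001184967 and NM_006722 follow at about 24 kb and NM_198177 at 126.789 kb. NM_198158, NM_000248, NM_001184968 and NM_198178 share the M start near 197 kb. In 3 of the 4 M-start rows (NM_000248, NM_198158 and NM_198178, with the same values) the mean gene body density was 0.0156 with A771726, 0.0226 with leflunomide and 0.0123 in DMSO. The library values were 0.0180 and 0.0131 with A771726 and 0.0246 and 0.0205 with leflunomide. The leflunomide libraries lay above the A771726 libraries, and the DMSO libraries could not be solved because no promoter read was counted there. The log2 change of the means was 0.29 with A771726 and 0.77 with leflunomide, against −0.52 and −0.06 for the median gene, and the M-start row was in no limma fit of gene bodies.

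The other MITF rows gave another order. In the A-start row NM_198159 the gene body densities were 0.0057 and 0.0040 with A771726, 0.0077 and 0.0096 with leflunomide and 0.0076 and 0.0054 with DMSO. The leflunomide libraries were the highest, by a very narrow margin over DMSO (0.0077 against 0.0076), and the A771726 and DMSO libraries overlapped. This A-start row, with a mean of 0.00667 over the groups, did not pass the gene body filter on low values (0.00872). The log2 change of the means was −0.30 with A771726 and 0.32 with leflunomide. The fourth M-start row, NM_001184968, is annotated over 2.437 kb only, and had 0.0126, 0.0093 and 0.0223. Promoter reads were few: the M start had 1 and 0 reads in the A771726 libraries, densities of 0.0183 and 0 in the leflunomide libraries and no read in DMSO. The A start had 1 and 0 reads with A771726, 1 and 3 with leflunomide and about 1 in each DMSO library. Each library held 3 reads or fewer at these starts, which is the number that a count of 0 allows, so a difference between the MITF starts or treatments was not detectable at this depth. This holds for the M window printed above with its cAMP response element.

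Across the 8 genes, the median log2 change of gene body density was −0.43 with A771726 against DMSO, −0.18 with leflunomide against DMSO and −0.53 with A771726 against leflunomide. Over the 8706 genes past the filter on low values the medians were −0.52, −0.06 and −0.47. All 8 genes passed this filter and that for promoters. MITF did so by its M-start row, whose mean promoter density of 0.00707 was close to the promoter threshold of 0.00627. With A771726, 2 of the 8 were at least 2-fold lower than in DMSO (FOXD3 and SNAI2) and 0 at least 2-fold higher, against 18.5% and 0.839% of all genes. With leflunomide, 1 was at least 2-fold lower than in DMSO (SNAI2) and 0 higher, against 4.49% and 1.84%. Between the compounds, 1 was at least 2-fold lower with A771726 than with leflunomide (SNAI2) and 0 higher, against 12.4% and 1.03%. Relative to the median gene, FOXD3 and SNAI2 still differed 2-fold from DMSO with A771726 and SNAI2 with leflunomide, against 5.73% and 3.89% of all genes lower by that measure, and 0 regulators were higher, against 3.6% and 2.25%. The 2 contrasts against DMSO share the DMSO libraries.

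**Figure D3:**
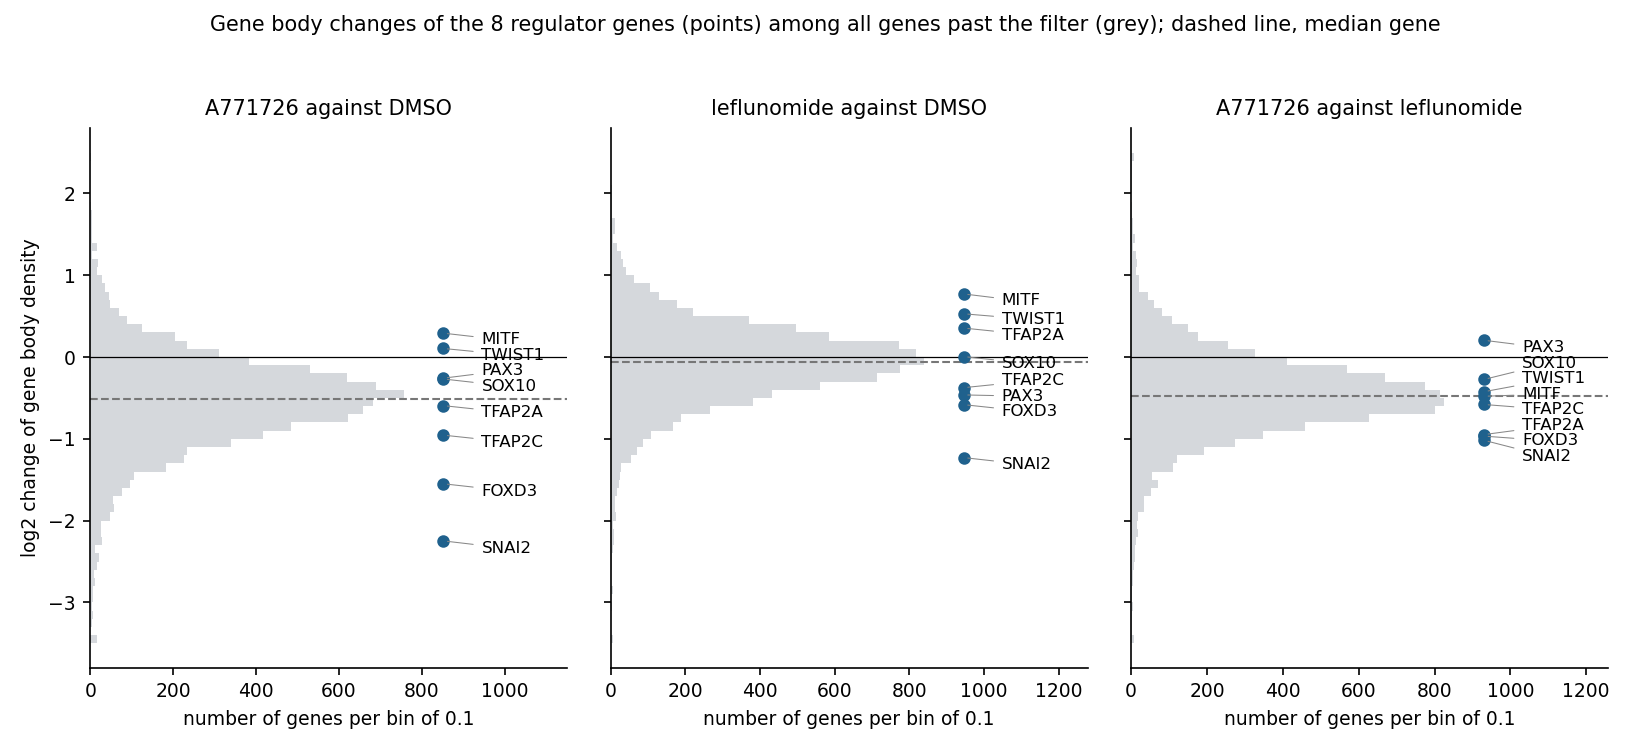
Log2 change of gene body density (vertical axis) for the 8 regulator genes (points, placed beside the distribution) and for the 8706 genes past the filter (grey bars, number of genes per bin of 0.1, the end bins also holding genes beyond them), in the 3 comparisons, with a dashed line at the median gene. With A771726 the median gene lies at −0.52, SOX10, PAX3, TWIST1 and MITF lie above it and SNAI2 and FOXD3 lie below −1.

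Among the 7 genes with a solved gene body value in all 6 libraries, 5 had both A771726 libraries below both DMSO libraries (FOXD3, SNAI2, SOX10, TFAP2A and TFAP2C), where 54.9% of 4913 genes did. With leflunomide 4 of the 7 lay below DMSO without overlap (FOXD3, PAX3, SNAI2 and TFAP2C), where 21.6% did. For A771726 below leflunomide there were 4 of 7 (FOXD3, SOX10, TFAP2A and TFAP2C), where 55.0% did. No regulator lay above the other group without overlap in any of these 3 comparisons, where 2.10%, 13.7% and 2.52% of genes did. Limma with Benjamini-Hochberg adjustment over all genes called 0 of the 4913 genes (0.0%) in each gene body comparison, and so 0 of the 7 regulators. At an unadjusted p under 0.05 there were 1077 genes for A771726 against DMSO, 225 for leflunomide against DMSO and 720 for A771726 against leflunomide. For A771726 against DMSO these included 3 of the 7 regulators (FOXD3, SNAI2 and TFAP2C, lower), where 21.7% of all genes were lower and 0.244% higher by that measure. For leflunomide against DMSO they included 0 of the 7, where 3.32% were lower and 1.26% higher. For A771726 against leflunomide they included 1 of the 7 (TFAP2A, lower), where 14.2% were lower and 0.468% higher. In bulk samples, less transcription per cell, fewer transcribing cells and a different scaling of the groups, which is not stated, cannot be told apart. The value of 1 read at promoters was 0.0241 and 0.0313 with A771726 and 0.0438 and 0.0520 in DMSO.

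At promoters, 2 of the 8 genes had means at least 2-fold higher with leflunomide than in DMSO (TFAP2A row NM_003220, log2 change 1.17, and TFAP2C, 1.61), against 30.6% of 8837 genes, and 0 lower, against 16.0%. With A771726 1 was at least 2-fold lower than in DMSO (SNAI2, listed at 0), against 26.0%, and 0 higher, against 20.8%. Between the compounds 3 were lower with A771726 than with leflunomide (SNAI2, TFAP2A row NM_003220 and TFAP2C), against 30.6%, and 0 higher, against 13.5%. MITF is represented by its M-start row in these counts of means, and by its A-start row in the library counts and limma below. The promoter means of these rows differ in direction for A771726 against DMSO, with log2 changes of 0.76 (M start) and −1.11 (A start). Over libraries, TFAP2C with leflunomide was the only regulator above DMSO without overlap (1 of 8, where 16.7% of 5164 genes were). The A-start row of MITF was the only one with A771726 below DMSO (1 of 8, where 16.4% were), and MITF, SNAI2, TFAP2A and TFAP2C had A771726 below leflunomide (4 of 8, where 22.9% did). For MITF this rests on single reads, since its A start held 1 read in the first A771726 library, in the first leflunomide library and in the first DMSO library, and 1 read stands for a lower density with A771726. The other 3 rest on few reads too. TFAP2A had densities of 0 and 0.0211 with A771726, against 3 and 1 reads with leflunomide. SNAI2 had 0 in both A771726 libraries against 2 and about 4 reads, and TFAP2C had 2 in each against 7 and about 3. In the rows used, no regulator had A771726 above DMSO (where 10.6% did), leflunomide below DMSO (10.8%) or A771726 above leflunomide (7.78%). The TFAP2A row NM_001032280 is outside these counts. It had 8 and 5 reads with A771726 against 1 and 3 with leflunomide, without overlap, and a log2 change of the means of 1.07. Limma called 15, 12 and 0 of 5164 genes at promoters (0.29%, 0.232% and 0.0%) for A771726 against DMSO, leflunomide against DMSO and A771726 against leflunomide, and no regulator was among them, the smallest adjusted p of a regulator being 0.995. At an unadjusted p under 0.05 it called 203, 116 and 134 genes (3.93%, 2.25% and 2.59%), and 0 of the 8 regulators.

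**Figure D4:**
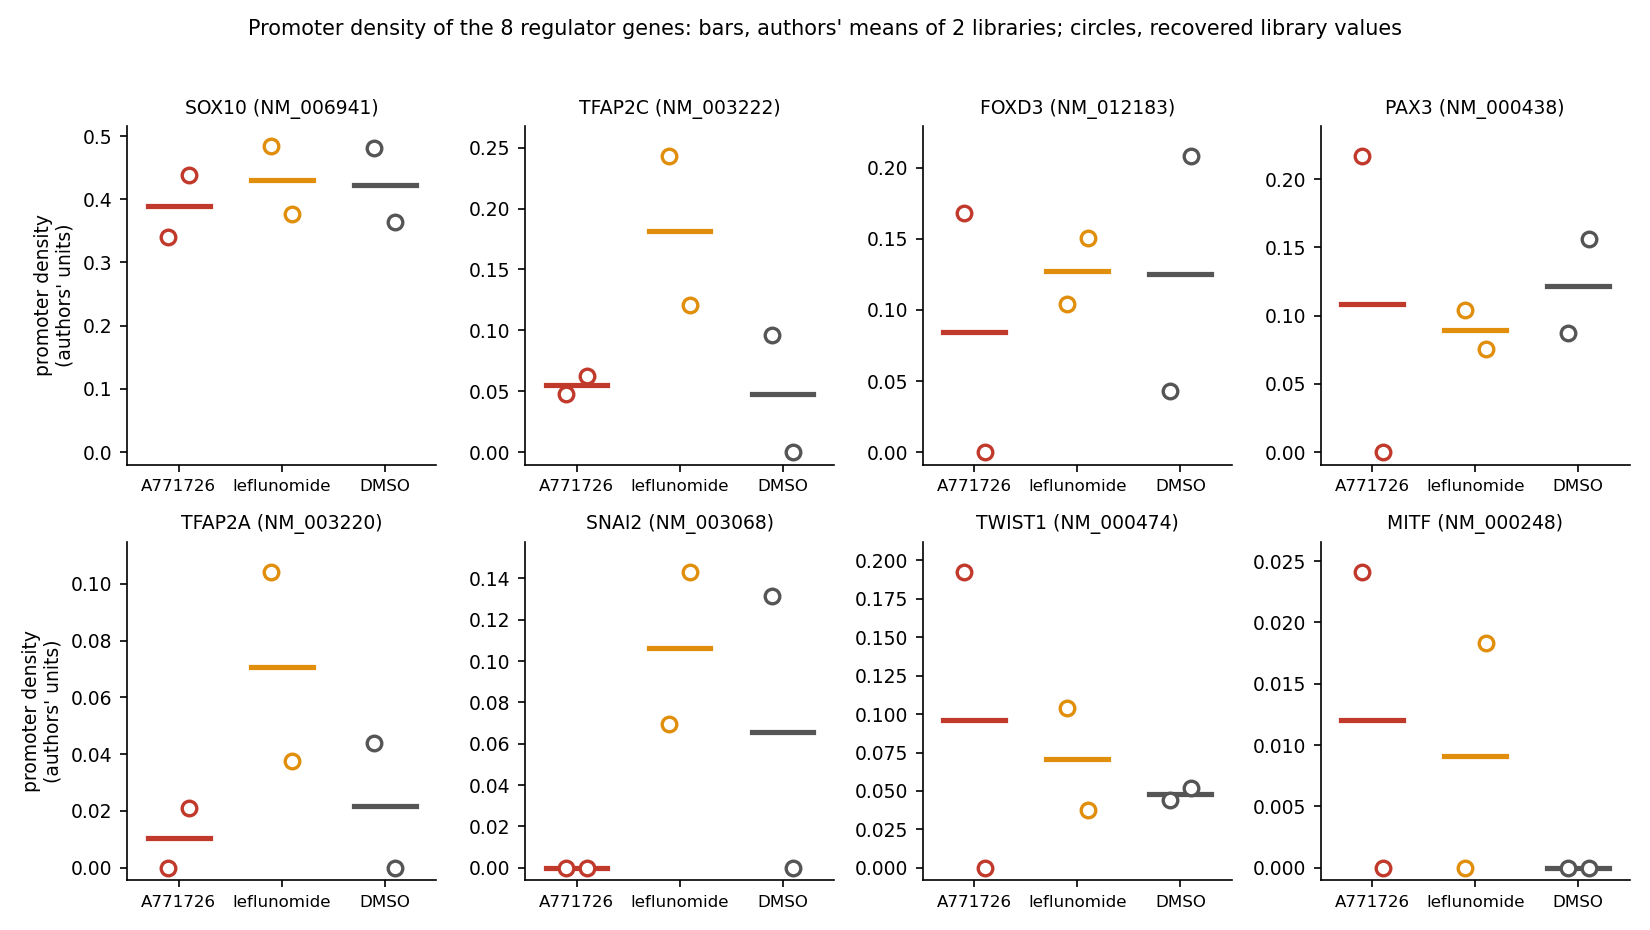
Promoter density (authors' units) of the same rows, with groups on the horizontal axis in the order A771726, leflunomide and DMSO, short bars for the authors' means and circles for library values (their left or right place carries no meaning). FOXD3, PAX3, TFAP2A, TWIST1 and MITF each have 1 of their A771726 libraries at 0, and SNAI2 has both.

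The traveling ratio of the rows used was at least 2-fold higher than in DMSO in 1 of 6 regulators with A771726 (TFAP2C, log2 change 1.09), against 34.6% of 5173 genes, and in 3 of 7 with leflunomide (TFAP2C, 2.18, SNAI2, 2.25, and TFAP2A, 1.57), against 27.9%. Between the compounds it was at least 2-fold lower with A771726 than with leflunomide in 2 of 7 (TFAP2A and TFAP2C), against 20.9%. None was at least 2-fold changed in the other direction, against 17.1%, 15.3% and 26.9% of genes. The 5173 genes have a finite ratio above 0 in every group, whereas regulators needed it only in the 2 groups compared. SNAI2 (leflunomide against DMSO) and MITF (A771726 against leflunomide) are thus among the 7 but not among the 5173. SOX10 had ratios of 1.48, 1.31 and 1.29 with A771726, leflunomide and DMSO, and PAX3 had 2.09, 3.24 and 3.42. Limma called 11, 10 and 0 of 4852 genes on the ratio (0.227%, 0.206% and 0.0%) in the 3 comparisons, with 0 of the 6 regulators tested among them. At an unadjusted p under 0.05 it called 263, 140 and 135 genes (5.42%, 2.89% and 2.78%), again with 0 regulators.

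A771726 and leflunomide differ by the opened isoxazole ring and were given at the same dose and time, so their gene body readings were set against each other in 7 regulators, with p-values adjusted over all 4913 genes. The TFAP2A and SNAI2 values are given above. For FOXD3 the limma estimate was −1.35 (95% interval −2.96 to 0.26, adjusted p = 0.349), and for TFAP2C −0.61 (95% interval −1.38 to 0.17, adjusted p = 0.356). SOX10 had −0.29 (95% interval −0.90 to 0.33, adjusted p = 0.509), TWIST1 −0.19 (95% interval −1.79 to 1.40, adjusted p = 0.860) and PAX3 −0.04 (95% interval −1.38 to 1.31, adjusted p = 0.969). No pair passed the threshold, and the intervals of all 7 but SOX10 include differences of more than 2-fold, so the compounds are not shown to act alike on these genes.

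The genes most like each regulator were sought among 7548 genes past both filters, by the Euclidean distance over 6 values, the log2 promoter and gene body means of the 3 groups, each measure centred on the gene's own mean. SNAI2 had the most distant neighbours, with IPO4 at 0.53, SNORA12 at 0.54 and MIR20A at 0.55 and 0 genes within 0.5. SOX10 had 527 genes within 0.5, with CPSF4 (0.089) and TBRG1 (0.11) among the nearest. TFAP2C was nearest to VMA21, to ID3, a helix-loop-helix inhibitor of the crest list below, and to UBOX5 (0.13 to 0.17). FOXD3 was nearest to SNORD78, NME2 and NICN1, TFAP2A to LOC645431, LOC100506451 and EIF3I, and MITF to SERPINE2, CSDA and LITAF. PAX3 was nearest to RILPL2, BCL2L11 and TUBG2, and TWIST1 to C16orf7, AMMECR1L and C1orf182. These 6 values share libraries and low promoter counts, and the distances are descriptions.

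Wider lists of the same biology were read for context by counts and medians. Of 28 other crest transcription factors 18 had rows and 15 passed the filter, with median gene body log2 changes of −0.74 with A771726 and −0.10 with leflunomide, against −0.52 and −0.06 over all genes. With A771726, 3 of the 15 were at least 2-fold lower and 0 higher, against 18.5% and 0.839% of all genes, and with leflunomide 0 were, against 4.49% lower and 1.84% higher. ID2, an inhibitor of helix-loop-helix factors, had the lowest value (−1.73 with A771726 and −0.75 with leflunomide), and its authors' means were 0.0204, 0.0424 and 0.0728 with A771726, leflunomide and DMSO. HAND2 had −1.26 with A771726. TFAP2E (0.09) and ID1 (−0.05) had the highest values with A771726, and TFAP2E (0.31) and ZIC2 (0.59) with leflunomide, where ZIC1 had −0.71. ID1 and ID3 were the most transcribed of the list in DMSO, with 0.565 and 0.505.

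Among AP-2 partners and regulators, all 12 had rows and 10 passed the filter, with medians of −0.70 with A771726 and −0.13 with leflunomide, against −0.52 and −0.06 over all genes. With A771726, 3 of the 10 were at least 2-fold lower: WWOX (−1.65), the CREB-binding protein partner CITED2 (−1.44) and CITED4 (−1.18), where 18.5% of all genes were. With leflunomide 0 of the 10 were 2-fold changed, and WWOX had the highest value (0.58) and CITED2 (−0.75) and CITED4 (−0.41) the lowest. The acetyltransferases EP300 and CREBBP had −0.41 and −0.30 with A771726. CITED4 was the most transcribed of the list in DMSO, with 0.124. CHD7, a chromatin remodeller of the crest, had 0.48 with leflunomide.

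Pigment and melanosome genes had rows for 15 of 27, and 8 passed the filter, with medians of −0.36 with A771726 and −0.29 with leflunomide, against −0.52 and −0.06 over all genes, and 2 of the 8 were at least 2-fold lower with A771726, against 18.5%. HPS6 and BLOC1S1, genes of lysosome-related organelle assembly, were the lowest with A771726 (−1.76 and −1.55) and with leflunomide (−0.67 and −0.64). PMEL was the highest with both (0.62 and 0.97), followed by the melanocortin receptor gene MC1R with A771726 (−0.27) and by RAB38 with leflunomide (0.43). Of 15 MiT family genes and other MITF targets 8 passed, with medians of −0.32 and 0.23, and 1 of the 8 was at least 2-fold higher with leflunomide, against 1.84% of all genes. This gene, CDKN2A, had means of 0.0106 with A771726, 0.0167 with leflunomide and 0.00615 in DMSO. Its DMSO mean lies below the filter threshold of 0.00872. It passed only through the compound groups, so its call is not independent of the filter. CDKN2A had the highest value with each compound (0.61 and 1.18), the second being HIF1A (−0.06 and 0.45), and BCL2L1 the lowest (−0.71 and −0.30) before CDK2 (−0.50 and −0.25).

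Endothelin, KIT, Wnt and BMP signalling genes had rows for 13 of 28, and 10 passed, with medians of −0.14 with A771726 and 0.29 with leflunomide. The ligand gene BMP4 had −1.83 with A771726, the only one of the 10 at least 2-fold changed with either compound, where 18.5% of all genes were lower with A771726 and 4.49% with leflunomide, and ERBB3, the neuregulin receptor, had −0.94. SMAD1 (0.66) and FGFR1 (0.22) were the highest with A771726, and FGFR1 (0.95) and FZD7 (0.85) with leflunomide, where NOTCH1 (−0.41) and ERBB3 (−0.17) were the lowest. ERBB3 and TCF7L2 were the most transcribed in DMSO, with 0.145 and 0.0627. Of 25 genes of the epithelial-mesenchymal and dedifferentiated melanoma programs 16 passed, with medians of −0.61 and 0.03, and 1 of the 16 was at least 2-fold lower with A771726, against 18.5% of all genes. CYR61, a matricellular target of YAP (−1.44), and the intermediate filament gene VIM (−0.79) were the lowest with A771726, and TEAD3 (−0.95) and JUN (−0.70) with leflunomide. TGFB1 (0.27) and AXL (0.00) were the highest with A771726, and ZEB2 (0.81) and YAP1 (0.52) with leflunomide, while VIM and FOSL1 were the most transcribed in DMSO, with 0.805 and 0.355. These counts and medians have no test.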

How the data were processed

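Read densities of 6 GRO-seq libraries of A375 cells were used. The submitters' processing notes name the build hg18, Bowtie 0.12.9 and bedtools. Per the file headers, the deposited signal values are the authors' group means of promoter and gene body read density, and the traveling ratio, with its fold over DMSO, is the authors' mean ratio of promoter to gene body. For the windows, the scaling, the strand and the annotation, details were not given in the sources used here. File headers write A771762, read as A771726.

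The row with the highest mean gene body density stood for each gene. Low genes were dropped with a threshold at percentile 30 of the mean over groups (0.00872 for gene bodies, 0.00627 for promoters). A gene low in 1 group can thus pass through the others. SNAI2, BMP4, HAND2 and ZIC2 lay below the gene body threshold with A771726, and CDKN2A in DMSO. Log2 changes of means add a pseudocount of 0.0022 (gene body) or 0.0174 (promoter), which understates low genes, and none for the ratio. In limma both pseudocounts were added to the library densities, also within the ratio. Pooled means carry no SD or n. Pairs of 4-decimal library values that yield the deposited means and ratio were solved, with a single solution in 95.2%, 96.2% and 92.2% of eligible A771726, leflunomide and DMSO rows. Of the promoter values 80.4%, 77.3% and 77.9% were whole reads. Solved genes entered limma 3.58.1 in R 4.3.3 (trend, robust, all groups in one fit, no covariate), tested on simulated data. The simulated gene body values had a normal spread on the log2 scale and no counts of 0. They do not cover genes with few reads. Transcript starts come from GENCODE v29 and promoters from RefSeq, both GRCh38, with no conversion.

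The members and lists were chosen with earlier results of these data known. Named were all rows of the 10 genes, the 3 nearest genes of each, and from each wider list the 2 highest and 2 lowest per compound and the 2 with the highest DMSO density. Some named by this rule are not reported here. Alternatives were other pseudocounts, filters, centring, all rows of a gene, and leaving out each library. For SNAI2, TFAP2A and TFAP2C 1 group could not be assigned to libraries, so leaving out a library could not be fitted. The fit with every deposited row of different values and the one with genes placed by library were chosen after seeing the data.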

Additional observations from a re-analysis of the deposited data

How the results depend on the processing

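No paired analysis was possible because the deposited columns are group means that carry no replicate number, and solved libraries were not matched to replicates. Library 1 and library 2 are names only. The regulators' median changes moved by less than the spread between libraries with other pseudocounts (not run for the ratio), centring and the mean over rows. That spread, the median SD of single genes, was larger than each of these medians, so this cannot show that they are stable. Filters and leaving out a library were not run for them. With centring on the median gene, the median for A771726 against DMSO turned sign for gene bodies, to 0.087 (−0.43 as deposited). For the ratio it turned to −0.30 (0.12 as deposited). The number of regulators at least 2-fold changed in gene body density stayed at 2 for A771726 against DMSO. For leflunomide against DMSO it fell to 0 with a pseudocount 5 times larger. For A771726 against leflunomide (1 in the values above) it was 0 with the larger pseudocount, 3 with one 5 times smaller, 0 with centring and 2 with the mean over all rows of a gene. At promoters the larger pseudocount left 0, 0 and 1 regulators for A771726 against DMSO, leflunomide against DMSO and A771726 against leflunomide. The smaller one gave 2 for A771726 against DMSO, and centring and the mean over rows each gave 1 for leflunomide against DMSO. For the ratio, the mean over rows gave 2 regulators for A771726 against DMSO.

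Over all genes the larger pseudocount lowered the counts of gene bodies at least 2-fold changed to 847 from 1683 (A771726 against DMSO), to 238 from 551 (leflunomide against DMSO) and to 426 from 1168 (A771726 against leflunomide). Promoter counts were lowered to 1048 from 4141, to 885 from 4119 and to 915 from 3897. A filter at the 50th percentile, with fewer genes, gave 345 gene bodies for leflunomide against DMSO and 2759, 2485 and 2479 promoters. Centring on the median gene gave 812 gene bodies for A771726 against DMSO (313 higher and 499 lower, against 73 and 1610) and 622 for A771726 against leflunomide (294 and 328, against 90 and 1078).

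Leaving out 1 library, in the 3399 to 3587 genes placed by library, gave limma calls of 0 to 106 for gene bodies, 12 to 32 for promoters and 0 to 42 for ratios in A771726 against DMSO. The 106 came without the first A771726 library, all lower, and the 32 and 42 without the first DMSO library. For leflunomide against DMSO the ranges were 0 to 1, 12 to 38 and 10 to 21, and for A771726 against leflunomide 0 to 0, 0 to 8 and 0 to 0. Gene body estimates that turned sign when 1 library was left out ranged over −1.34 to 0.40 (PAX3) and −0.48 to 1.11 (TWIST1) for A771726 against DMSO, over −0.036 to 0.045 (SOX10) and −0.33 to 1.35 (TWIST1) for leflunomide against DMSO, and over −0.91 to 0.83 (PAX3) and −1.03 to 0.64 (TWIST1) for A771726 against leflunomide. With libraries centred on their medians they were 0.061 (PAX3) and 0.25 (SOX10) for A771726 against DMSO, and 0.45 (PAX3), 0.21 (SOX10) and 0.30 (TWIST1) for A771726 against leflunomide, where the larger pseudocount gave PAX3 0.016. With the mean over its rows MITF turned sign for A771726 against DMSO (−0.11 for the gene body and −0.083 for the promoter) and for the ratio with A771726 against leflunomide (−1.18). TFAP2A gave 1.64 for the ratio with A771726 against DMSO, −0.16 for the ratio with leflunomide against DMSO, and 0.27 for the promoter and 1.80 for the ratio with A771726 against leflunomide. Centring turned the means of SOX10 to −0.21 (ratio, A771726 against DMSO) and 0.16 (promoter, A771726 against leflunomide). The cause of these differences was not tested. Promoter counts of 0 to 14 reads limit all promoter and ratio comparisons of these genes. Gene body densities were not converted to reads, so the counting error of short genes such as SNAI2 and FOXD3 is not known.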
